A study of Mus musculus with 10 samples.

Results

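The wells described here come from a plate of mouse trophoblast stem cells (TSCs) that had been taken through differentiation, and they were chosen by their own counts of Sox2 and Eomes. A well was taken where it had at least 2000 UMIs (counted transcripts) outside mitochondrial genes, under 5 UMIs of Vnn1, under 2 UMIs of Serpinb9e, Serpinb9g, Hsd11b2 and Gjb2 together, and at least 5 UMIs of Sox2 plus Eomes per 10000. This gave 66 wells, called the Sox2/Eomes wells here. They were 30.7% of the 215 wells that passed the other conditions (exact binomial 95% interval 24.6 to 37.3%), 20.8% of the 318 wells kept on the plate, and 66 of 1192 wells kept on all 4 plates of the study. They were set against 114 comparator wells of the same plate, which passed the other conditions and held under 2 UMIs of Sox2 plus Eomes per 10000. The 35 wells between both cuts are given beside them. The other 103 kept wells failed the cut on Vnn1 or on the 4 other genes, and of these 3 held at least 5 UMIs of Sox2 plus Eomes per 10000 and 96 held under 2.

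TSCs are the cultured counterpart of the trophectoderm, the outer layer of the blastocyst from which the placenta forms. They self-renew under FGF4 with heparin and under TGF-beta or activin, and FGF signals reach the nucleus through the kinase ERK. Sox2 and Eomes are transcription factors that hold mouse TSCs in the stem cell state together with Cdx2, Elf5, Esrrb and Tfap2c. When FGF is withdrawn, the cells leave this state for the fates of the placenta, among them spongiotrophoblast, labyrinth and trophoblast giant cells.

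Every single-cell group is 1 library from a plate of 384 wells, made with CEL-Seq2, a method that reads transcript ends. The cells carried a GFP cassette integrated at random, on a C57BL/6J background. The differentiated plate held TSCs labelled as line F4 after 6 days without Fgf4, Tgfb and heparin. The plates set beside it held F4 TSCs in Tx medium (the TSC plate), newly derived pTSCs in LT21 medium, and pTS1 pTSCs isolated from blastoids, which are structures like a blastocyst formed from stem cells. Bulk RNA came from TSCs with eGFP knocked in at CDX2, with 3 CDX2-high and 3 CDX2-low libraries. With 1 library a group, no test was made on single cells. Ratios are of UMIs summed over wells and scaled to CPM, with UMIs outside mitochondrial genes as the total, and their 95% intervals cover counting error only.

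The median depth was 8252 UMIs in the Sox2/Eomes wells and 8075 in the comparators, with 21.96% and 22.13% of all UMIs from mitochondrial genes. They lay over the whole plate, with 35 Sox2/Eomes wells among its lower well numbers and 31 among its upper ones, against 62 and 52 comparators. Some RNAs set the whole differentiated library apart from the TSC plate. The imprinted RNA H19 had 0 UMIs in the Sox2/Eomes wells and 0 in the comparators, against 6442 CPM in the TSC wells chosen by the same cut. Xist, the RNA of X inactivation, was at 8.05 CPM in the Sox2/Eomes wells and 5.60 CPM in the comparators, against 238 CPM in those TSC wells. The Y-linked gene Uty had 17 UMIs in the Sox2/Eomes wells and 41 in the comparators, against 0 in those TSC wells. The Sox2/Eomes wells and their comparators were alike in this, but the differentiated library goes against its label as cells of the line on the TSC plate. Any difference in level between these plates cannot be told apart from a difference between cell lines.

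The level of Sox2 plus Eomes, which chose the wells, ran from 5.10 to 51.2 per 10000 UMIs with a median of 15.4. The wells just inside the cut were at 5.10, 5.24 and 5.34, and those just outside it at 4.88, 4.75 and 4.74. Membership rested on 2 to 56 UMIs of both genes (median 13.5), and 9 wells had under 5. Both genes were seen in 57 of the 66 wells, Sox2 alone in 6 and Eomes alone in 3. Sox2 reached 43.2 per 10000 with a median of 10.6, and Eomes 13.2 with a median of 4.79, so most of the selection came from Sox2. Of the comparators, 84 of 114 had no UMI of either gene.

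**Figure D1:**
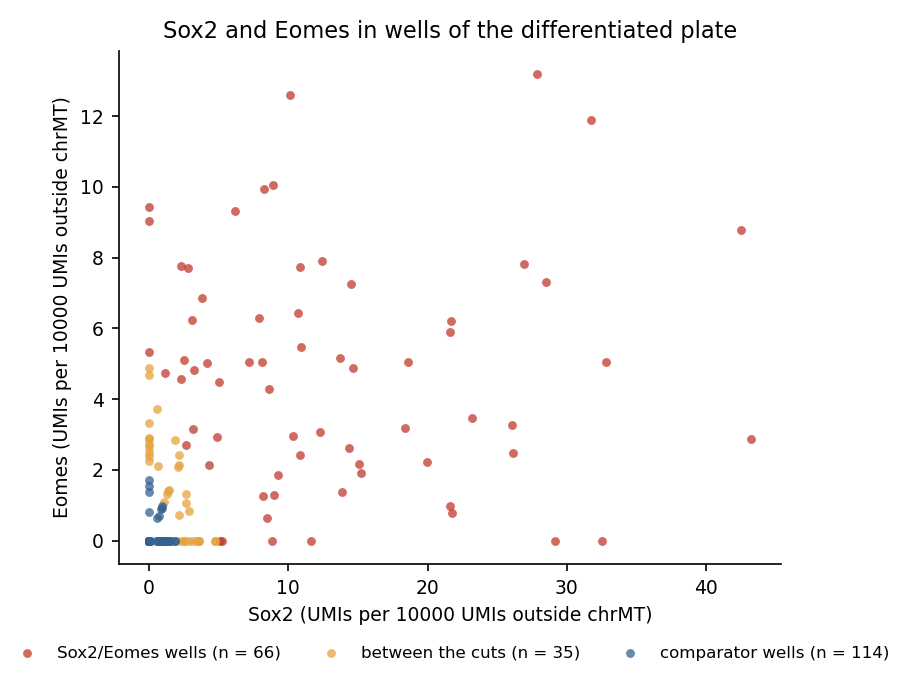
Each point is 1 of 215 wells of the differentiated plate, with Sox2 on the x axis and Eomes on the y axis, both in UMIs per 10000 UMIs outside mitochondrial genes, coloured by the group that their sum put it in. Of the 66 Sox2/Eomes wells 57 hold both genes.

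Each gene can be read in wells chosen by the other, which leaves its own counts out of the choice. In 50 wells with at least 5 UMIs of Sox2 per 10000, Eomes was at 475 CPM, against 48.7 CPM in 135 wells with under 2 of Sox2, which was 9.75-fold higher (7.32 to 13.2). In 68 wells with at least 2 UMIs of Eomes per 10000, Sox2 was at 967 CPM, against 92.5 CPM in 122 wells with no Eomes, which was 10.5-fold higher (8.46 to 13.04). The same choice gave smaller ratios on the other plates. Eomes in wells chosen by Sox2 was 3.67-fold higher (3.15 to 4.31) on the TSC plate, 1.67-fold (1.47 to 1.90) on the pTSC plate and 3.13-fold (2.61 to 3.76) on the blastoid plate. The intervals on the differentiated plate do not meet those of the other plates, but they cover counting error only, and differences between plates were not tested. Over the 215 wells that passed the other conditions the levels of both genes had a Spearman's rho of 0.59. These wells share 1 library, and the value also carries the depth of each well.

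Nodal, Klf2 and Rgs16 had been put forward as further markers of these cells, and of the 3 Nodal stood at least 2-fold higher. Nodal, a TGF-beta family ligand of the early embryo, was at 146 CPM (91 UMIs in 30 of 66 wells) in the Sox2/Eomes wells and at 37.3 CPM (40 UMIs in 22 of 114 wells) in the comparators, 3.93-fold higher (2.68 to 5.85). Klf2, a Kruppel-like transcription factor, was at 146 CPM in the Sox2/Eomes wells and 271 CPM in the comparators, 1.85-fold lower (1.46 to 2.37). Rgs16, which shortens G protein signals, was at 201 CPM in the Sox2/Eomes wells and 159 CPM in the comparators, 1.27-fold higher (0.999 to 1.61). One comparator well held 81 of the 170 Rgs16 UMIs of its group, and without that well the ratio was 2.39 (1.80 to 3.17). All 3 were more abundant in the Sox2/Eomes wells than in the matching TSC wells, Nodal 8.36-fold, Klf2 3.96-fold and Rgs16 12.9-fold. Those TSC wells had Nodal at 17.5 CPM, Klf2 at 36.97 CPM and Rgs16 at 15.6 CPM, and the comparators were above them in all 3 as well. A higher level than in TSC wells was thus not particular to the Sox2/Eomes wells, and Klf2 was highest in the comparators. These comparisons also cross the libraries that differ as named above.

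The Sox2/Eomes wells had Sox2 and Eomes with almost no Cdx2 or Elf5. Cdx2, the trophectoderm homeobox factor, had 1 UMI in the 66 Sox2/Eomes wells and 4 in the 114 comparators (1.61 and 3.73 CPM). Elf5, an ETS factor of the same circuit, had 1 UMI in the Sox2/Eomes wells and 0 in the comparators. Esrrb had 3 and 0 UMIs, and Tfap2c 1 and 0. Both were also low in the TSC wells chosen by the same cut, with Esrrb at 2.78 CPM and Tfap2c at 4.17 CPM. In bulk CDX2-high libraries their means were 254 and 230 CPM. Low counts of these 2 genes were thus not particular to the differentiated plate. On the TSC plate the wells with at least 5 UMIs of Sox2 plus Eomes per 10000 had Cdx2 at 59.8 CPM and Elf5 at 47.5 CPM, so that in the Sox2/Eomes wells Cdx2 was 37.1-fold lower (6.60 to 1474) and Elf5 29.5-fold lower (5.23 to 1173). Sox2 and Eomes themselves, as the cut fixes, were at 1269.6 and 496 CPM in the Sox2/Eomes wells and at 1083 and 524 CPM in those TSC wells. On the differentiated plate, then, wells were found that held Sox2 and Eomes at the level of the chosen TSC wells, and Cdx2 and Elf5 near 0. Since membership was set by Sox2 and Eomes, the likeness in these 2 genes is no finding. The comparators were near 0 in Cdx2 and Elf5 as well, so this was not particular to the Sox2/Eomes wells. In bulk CDX2-high libraries Cdx2 had 1, 0 and 5 counts, so few counts of it do not show that it is absent. The comparison with TSC wells also crosses the libraries that differ as named above.

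Across all genes, 7818 had at least 10 UMIs over both groups outside the 7 genes of the rule. Of these 709 (9.07%) were at least 2-fold higher in the Sox2/Eomes wells and 685 (8.76%) at least 2-fold lower, and the median log2 ratio was 0.05. Counts of listed genes below are to be read against these shares. Of the TSC regulators other than Sox2 and Eomes, 11 of 17 were measured, of which 6 were at least 2-fold higher and 0 lower, with a median log2 ratio of 1.03. Id2, an inhibitor of bHLH factors, was the most abundant of them, with a range of 0 to 44.7 per 10000 and a median of 13.5 in the Sox2/Eomes wells, against 0 to 57.5 and a median of 0.480 in the comparators. Its summed level was 1369 CPM against 435 CPM in the comparators, 3.15-fold higher (2.81 to 3.54), though the ranges of single wells overlap. The other 5 were Tead4 (2.04-fold, 1.64 to 2.53), a partner of YAP at the start of the trophectoderm lineage, the FGF receptor Fgfr2 (12 UMIs in the Sox2/Eomes wells and 5 in the comparators), Bmp4 (27 and 19 UMIs), Sox21, a relative of Sox2 (5.37-fold, 3.11 to 9.70), and Nr0b1. Nr0b1, an orphan nuclear receptor, had 32 UMIs in 15 Sox2/Eomes wells and 0 in the comparators. With the comparators set to 3 counts as a floor the ratio was 18.4, which leaves out the counting error of the 32 UMIs. Bmp4 was at 1.94-fold (0.995 to 3.82) without the 1 Sox2/Eomes well that held 6 of its 27 UMIs. Gata3 and Ets2, factors of trophoblast as a whole, were within 2-fold, at 389 and 288 CPM in the Sox2/Eomes wells and 306 and 297 CPM in the comparators. Tcf7l1, a repressor of WNT targets, was at 397 CPM in the Sox2/Eomes wells and 731 CPM in the comparators.

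Feedback genes of FGF and ERK signalling were higher in the Sox2/Eomes wells, on a plate that had been without Fgf4. Of 16 FGF and ERK targets 11 were measured, and 6 of them (Spry2, Spry4, Dusp6, Ccnd1, Spred1 and Spred2) were at least 2-fold higher and 0 lower, with a median log2 ratio of 1.03. Dusp6, a phosphatase of ERK, was seen in 37 of 66 Sox2/Eomes wells and in 13 of 114 comparators. It was at 201 CPM in the Sox2/Eomes wells and 21.4 CPM in the comparators, 9.38-fold higher (5.98 to 15.3). After each well was thinned to 2000 UMIs, a UMI of Dusp6 was left in 33.3% of Sox2/Eomes wells (22.2 to 46.01%) and in 1.75% of comparators (0.213 to 6.19%). These 2 intervals are exact binomial over wells of 1 library, which are not replicates. Spry4, an inhibitor of receptor tyrosine kinase signals, had 72 UMIs in the Sox2/Eomes wells and 5 in the comparators, 24.8-fold higher (10.2 to 78.8). Spred2, another inhibitor of this pathway, was at 489 CPM in the Sox2/Eomes wells and 140 CPM in the comparators. Dusp5, also an ERK phosphatase, lay in the other direction at 188 CPM in the Sox2/Eomes wells and 368 CPM in the comparators.

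**Figure D2:**
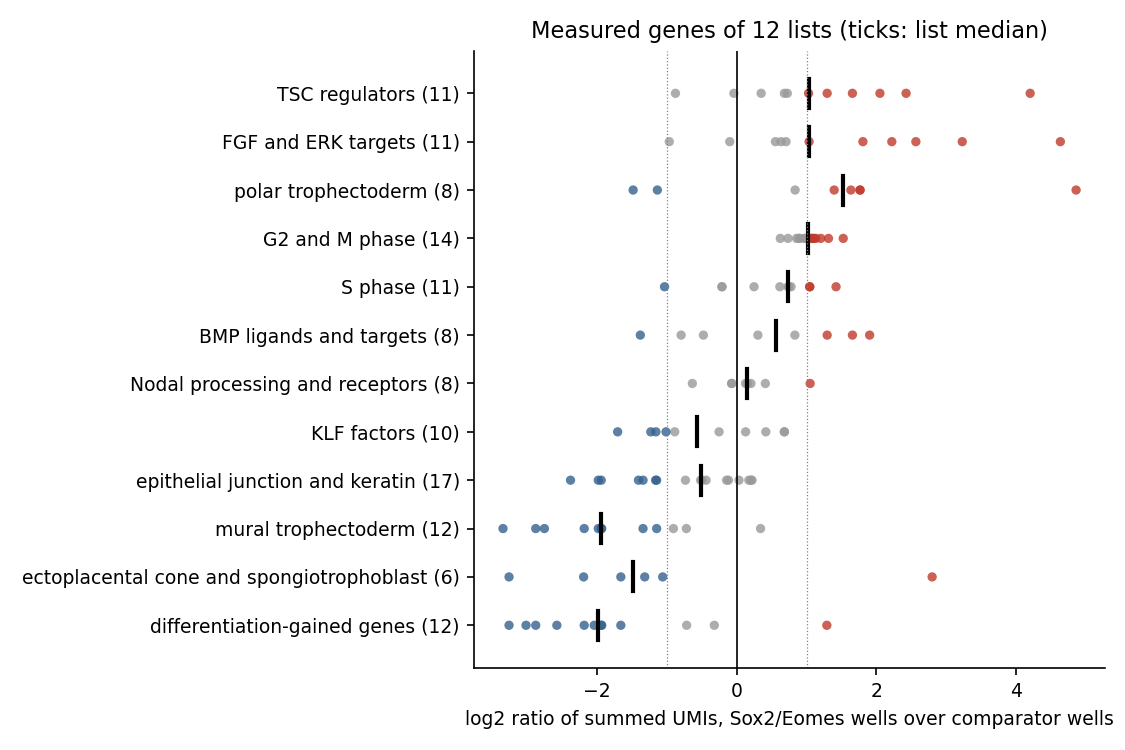
Each point is a measured gene of 12 lists, placed by its log2 ratio of summed UMIs in 66 Sox2/Eomes wells over 114 comparator wells, with a tick at each list's median and the number of measured genes in brackets. Red points are at least 2-fold higher and blue points at least 2-fold lower. TSC regulators, FGF and ERK targets and G2 and M phase genes have medians near 1, and mural trophectoderm genes a median of -1.94.

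By counting error, the 15 genes that stood farthest above the comparators, outside the genes of the rule, were Zic5, Coro2b, Spry4, Car2, Dusp6, Fgfr4, Sema7a, Stard8, Adgrl1, Cbfa2t3, Cpne3, B4galt6, Dok2, Pbx3 and Efna3. Zic5, a zinc finger transcription factor, had 65 UMIs in 26 Sox2/Eomes wells and 3 UMIs in 3 comparators, 37.4-fold higher (12.2 to 186). Car2, a carbonic anhydrase, was the most abundant of the 15. Its level ran from 0 to 82.1 per 10000 with a median of 9.88 in the Sox2/Eomes wells, and from 0 to 30.98 with a median of 0.783 in the comparators, and the sums differed 6.95-fold (6.07 to 7.98). Fgfr4 is a receptor for FGFs, and it had 55 UMIs in the Sox2/Eomes wells and 8 in the comparators, 11.9-fold higher (5.62 to 28.8). The semaphorin Sema7a was 7.43-fold higher (5.53 to 10.1), the adhesion receptor Adgrl1 6.79-fold (4.51 to 10.5) and the ephrin Efna3 4.78-fold (3.91 to 5.88). Cpne3, a calcium-dependent membrane-binding protein, was at 1041 CPM in the Sox2/Eomes wells and 201 CPM in the comparators. B4galt6, an enzyme that makes lactosylceramide, was at 713 CPM in the Sox2/Eomes wells and 145 CPM in the comparators. The homeodomain factor Pbx3 (6.28-fold) and the corepressor Cbfa2t3 (7.14-fold) also stood among them. In none of these 15 genes were the wells of both groups separate, since every gene was at 0 in some Sox2/Eomes wells.

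Genes of polar trophectoderm, the part of the trophectoderm next to the embryo, were mostly on the higher side. Of 12 listed genes 8 were measured, 5 at least 2-fold higher and 2 at least 2-fold lower, with a median log2 ratio of 1.51. The glutathione transferase Gsto1 was at 2623 CPM in the Sox2/Eomes wells and 771 CPM in the comparators (3.40-fold, 3.13 to 3.70), and the chromatin factor Utf1 at 1101 and 419 CPM (2.63-fold, 2.33 to 2.97). Ppp2r2c and Ddah1 were 3.10-fold and 3.40-fold higher. Nat8l, which makes N-acetylaspartate, had 101 UMIs in the Sox2/Eomes wells and 6 in the comparators, and it came from 16 of 66 Sox2/Eomes wells. The 2 lower genes were Cited1 (10 UMIs in the Sox2/Eomes wells and 38 in the comparators) and Sct, the hormone secretin (6 and 29 UMIs).

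The genes that stood farthest below the comparators were Nrk, Ndrg1, Dkk1, Serpinb9b, Zfp36l3, Eva1a, App, Abca1, Pramef12, Pkp2, Aldh3b2, 3830417A13Rik, Pdgfb, Krt8 and Timp2. Nrk, a kinase of the spongiotrophoblast, ran from 0 to 7.31 per 10000 with a median of 1.04 in the Sox2/Eomes wells, and from 0 to 121 with a median of 4.17 in the comparators. Its sums were 121 CPM in the Sox2/Eomes wells and 1159 CPM in the comparators, 9.61-fold lower (7.61 to 12.3). Ndrg1, a gene of stress and differentiation, was 10.2-fold lower (6.07 to 18.5), and Dkk1, a secreted WNT antagonist, 9.85-fold lower (6.05 to 17.2). Krt8, a keratin of simple epithelia, was at 673 CPM in the Sox2/Eomes wells and 2586 CPM in the comparators, 3.84-fold lower (3.47 to 4.27). It had a UMI in 60 of 66 Sox2/Eomes wells, so that the difference is one of level and not of presence. Pkp2, a desmosome plaque protein, was 5.22-fold lower (3.90 to 7.11). Serpinb9b and Pramef12 belong to families of similar genes, and how reads shared between copies were counted is not given in the sources used here.

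Lists of differentiated trophoblast lay on the same side. Of 15 mural trophectoderm genes, 12 were measured, 0 at least 2-fold higher and 9 at least 2-fold lower, with a median log2 ratio of -1.94. Among them were Krt18 (2.54-fold lower, 2.33 to 2.77), the VEGF receptor Flt1 (3.83-fold, 3.11 to 4.75) and the small heat shock protein Cryab (7.37-fold, 5.84 to 9.42). One comparator well held 375 of the 979 Cryab UMIs of its group, and without it the gene was 4.65-fold lower. Of 13 genes of ectoplacental cone and spongiotrophoblast, 6 were measured, and 5 were at least 2-fold lower. They were Nrk, the imprinted growth genes Phlda2 and Igf2, and the homeobox genes Rhox6 and Rhox9. Rhox6 was at 621 CPM in the Sox2/Eomes wells and 1966 CPM in the comparators (3.17-fold lower, 2.84 to 3.54), and reads of Rhox6 and its near copy Rhox9 may be split between them. Car2 was the 1 gene of that list that was higher. The spongiotrophoblast markers Tpbpa and Tpbpb had 0 UMIs in the Sox2/Eomes wells and 0 in the comparators. Of 18 giant cell genes 3 were measured, with 2, Serpinb9b and Serpinb9d, at least 2-fold lower, and the giant cell factor Hand1 had 0 UMIs in both groups. Of 15 genes of labyrinth and syncytiotrophoblast, 4 were measured, of which Dlx3 and Cebpb were at least 2-fold lower. Of 12 genes named earlier as gained on the differentiated plate, all were measured, 9 at least 2-fold lower and 1 higher. That list was chosen on these same libraries and is no independent evidence of direction. It shares its lower genes Krt8, Flt1, Slc5a5, Cryab, Nrk, Rhox6 and Dlx3 with the lists above, so these counts are not separate. Its 1 higher gene, Gpnmb, had 55 of its 85 UMIs in 1 Sox2/Eomes well, and without that well its ratio was 0.876 (0.545 to 1.38).

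Epithelial genes were split between lower and similar levels. Of 19 genes of junctions and keratins 17 were measured, 0 at least 2-fold higher and 7 at least 2-fold lower (Cldn4, Krt8, Krt18, Krt7, Krt19, Dsp and Pkp2), with a median log2 ratio of -0.52. Cdh1, the adhesion protein E-cadherin, was at 1070 CPM in the Sox2/Eomes wells and 950 CPM in the comparators. Epcam was at 404 CPM in the Sox2/Eomes wells and 395 CPM in the comparators. The lower genes were keratins, desmosome proteins and a claudin.

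Of 18 genes of G2 and M phase 14 were measured, 7 at least 2-fold higher and 0 lower, with a median log2 ratio of 1.02. Top2a, which untangles DNA at mitosis, was at 1136 CPM in the Sox2/Eomes wells and 544 CPM in the comparators (2.09-fold, 1.87 to 2.34), and Ube2c, which drives exit from mitosis, at 996 and 401 CPM (2.48-fold, 2.19 to 2.82). Of 17 S phase genes 11 were measured, 3 at least 2-fold higher and 1 lower, and Rrm2, which makes DNA precursors, was 2.68-fold higher (2.22 to 3.24). The summed G2 and M phase list ran from 0 to 171 per 10000 with a median of 47.2 in the Sox2/Eomes wells, and from 0 to 126 with a median of 15.1 in the comparators. The part of the cell cycle in the other differences was not tested.

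Of 8 Nodal and activin ligands, Nodal was the 1 that was measured. Of 12 genes for processing and receptors 8 were measured and 1, the convertase Pcsk6, was at least 2-fold higher on 6 UMIs in the Sox2/Eomes wells and 5 in the comparators. The receptor Acvr1b was at 116 CPM in the Sox2/Eomes wells and 106 CPM in the comparators, and the signal transducer Smad3 at 138 and 145 CPM. Of 10 BMP ligands and targets 8 were measured, 3 at least 2-fold higher (Bmp4, Id2 and the inhibitory Smad6) and 1 lower (Id3, with 2 and 9 UMIs). Smad6 was 3.74-fold higher (2.39 to 5.97). All 10 KLF factors of the list were measured, 0 at least 2-fold higher and 4 at least 2-fold lower (Klf4, Klf6, Klf10 and Klf13). Klf6 was at 864 CPM in the Sox2/Eomes wells and 1930 CPM in the comparators (2.23-fold lower, 2.03 to 2.46). Of 16 SOX and T-box relatives 9 were measured. Sox3 (22 UMIs in the Sox2/Eomes wells and 0 in the comparators), Sox21 and Tbx20 were at least 2-fold higher, and Sox15, Tbx2 and Tbx3 at least 2-fold lower. Of 12 WNT genes 4 were measured, with Znrf3 at least 2-fold higher and Dkk1 lower. Of 12 RGS genes 2 were measured, Rgs16 and Rgs5, and both were within 2-fold with all wells counted. Rgs5 was at 80.5 CPM in the Sox2/Eomes wells and 55.02 CPM in the comparators, of which 1 comparator well held 29 of 59 UMIs. Without that well Rgs5 was 2.83-fold higher (1.77 to 4.62), and Rgs16, as given above, was 2.39-fold higher without 1 comparator well.

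Of cholesterol synthesis genes 2 of 14 measured (14.3%) were at least 2-fold higher and 0 lower, with a median log2 ratio of 0.595. Their summed level was 2518 CPM in the Sox2/Eomes wells and 1782 CPM in the comparators. The p53 targets (1 of 11 higher, 0 lower) and glycolysis genes (0 of 9 in either direction) stood near or under the share of all genes. Of 9 measured immediate early and heat shock genes, 2 were at least 2-fold higher (Ier2 and Hsph1) and 4 lower (Fosb, Jun, Hspa1a and Hspa1b). Jun, a gene of stress and of handling, was at 436 CPM in the Sox2/Eomes wells and 1029 CPM in the comparators. Of 4 measured interferon genes 1 was higher and 2 lower, each on under 20 UMIs over both groups.

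Sox2 and Eomes also mark other early lineages, and apart from the pluripotent list the lists of these had few UMIs. Each total is over the members that the plate's table lists. The table lists neither of the pluripotency factors Pou5f1 and Nanog. Of 9 neural ectoderm genes 6 were listed, with 11 UMIs in the Sox2/Eomes wells and 13 in the comparators, at most 1.83 and 3.29 per 10000 in a well, and Sox1 and Fabp7 were at 0 in the Sox2/Eomes wells. Of 7 genes of primitive streak and mesoderm 4 were listed, with 10 UMIs in the Sox2/Eomes wells and 9 in the comparators, at most 1.70 and 2.17 per 10000, and Lhx1 was at 0 in both. Of 11 primitive endoderm genes 6 were listed, with 15 UMIs in the Sox2/Eomes wells and 16 in the comparators, at most 3.11 and 3.29 per 10000. The 1 measured gene of that list, Gata6, had 8 UMIs in the Sox2/Eomes wells and 6 in the comparators. Of 11 fibroblast genes 8 were listed, with 14 UMIs in the Sox2/Eomes wells and 20 in the comparators, at most 2.94 and 6.59 per 10000. The 9 listed genes of the pluripotent list had 771 UMIs in the Sox2/Eomes wells and 938 in the comparators (1241 and 875 CPM). Genes of that list that TSCs also express were present, with Zfp42 at 225 CPM in the Sox2/Eomes wells and 141 CPM in the comparators, and Pou3f1 at 555 and 317 CPM. No gene of that list was at least 2-fold higher and 1 of 5, Klf4, was lower.

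The leading genes did not split the plate cleanly, and the wells between the cuts lay between the groups. A Sox2/Eomes well held a median of 10 of the 15 leading higher genes (1 to 15), a well between the cuts 7 (1 to 15) and a comparator 3.5 (0 to 11). At least 8 of them were seen in 51 of 66 Sox2/Eomes wells, 16 of 35 wells between the cuts and 8 of 114 comparators. Of the 15 leading lower genes, a Sox2/Eomes well held a median of 4 (0 to 9), a well between the cuts 6 (1 to 12) and a comparator 8 (2 to 14). Such counts also carry depth. The well between the cuts with all 15 higher genes had 41569 UMIs, against at most 26961 in a Sox2/Eomes well. Per 10000 UMIs, the summed level of the higher genes had medians of 49.2, 25.4 and 7.56 in the same order. For the lower genes the medians were 11.2, 20.1 and 51.1. These genes were picked for their difference between the outer groups, so only the place of the wells between the cuts was not fixed by the choice. Among single genes, Dusp6 was at 56.5 CPM in the wells between the cuts, Car2 at 520 CPM and Krt8 at 1077 CPM, each between the outer groups. Others lay near one side, with Zic5 at 8.08 CPM near the comparators and Nrk at 140 CPM and Gsto1 at 2889 CPM near the Sox2/Eomes wells.

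**Figure D3:**
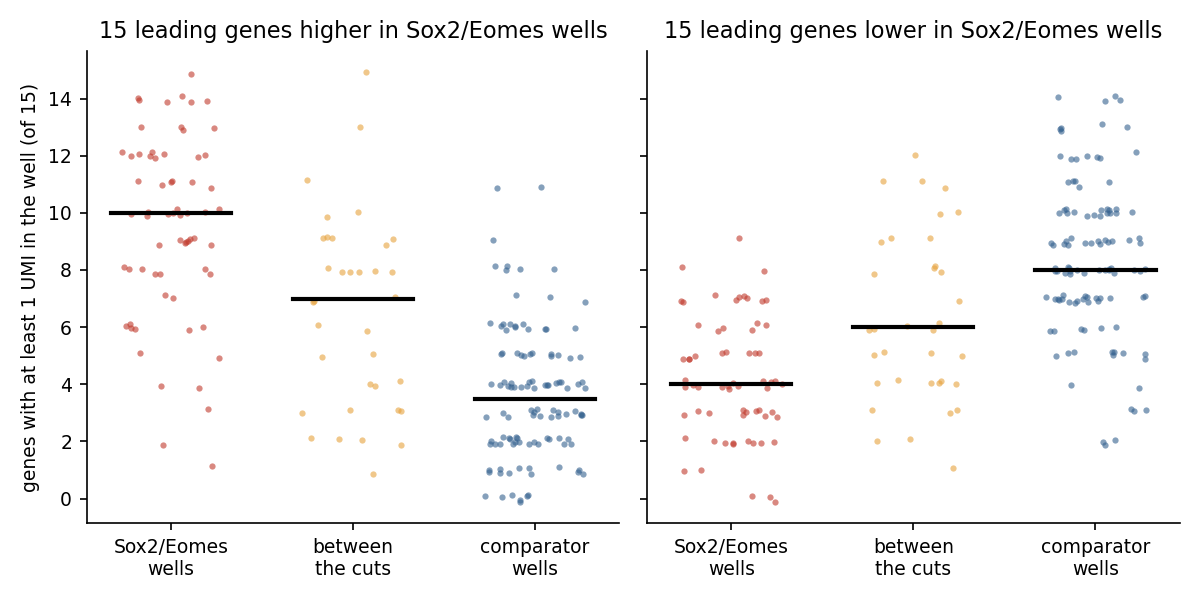
Each point is a well of the differentiated plate, and the y axis gives how many of 15 leading genes had at least 1 UMI there, for the higher genes (left panel) and the lower genes (right panel). Bars are medians, 10, 7 and 3.5 on the left and 4, 6 and 8 on the right, in the order Sox2/Eomes wells, wells between the cuts and comparators.

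Over the 215 wells that passed the other conditions, the genes whose level followed Sox2 plus Eomes most closely by Spearman's rho included Id2 (0.59), Efna3 (0.58), B4galt6 (0.57), Stard8 (0.56), Gsto1 (0.55), Car2 (0.53), Atrx (0.53), Ppp2r2c (0.51) and Spred2 (0.50). The median rho of the 4808 genes compared was 0.035. Nrk (-0.55), Krt8 (-0.53) and Pkp2 (-0.51) ran farthest the other way. The wells share 1 library and each gene's rho also carries the depth of the wells.

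The same cuts were put to the other plates, whose wells played no part in choosing the genes. They gave 217 wells above the upper cut and 51 below the lower cut among TSCs, 215 and 22 among pTSCs and 110 and 103 among blastoid pTSCs. On the TSC plate 13 of the 15 leading higher genes were at least 2-fold higher, where 9.31% of 10026 measured genes were, and 14 of the 15 leading lower genes were at least 2-fold lower, where 7.61% were. On the blastoid plate it was 13 of 15 higher genes (10.5% of 8775 genes) and 13 of 15 lower genes (7.52%). On the pTSC plate it was 4 of 15 higher genes (8.38% of 8524 genes) and 7 of 13 measured lower genes (14.2%), with 22 low wells behind the values. No leading gene was at least 2-fold in the opposite direction on any of these plates.

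**Figure D4:**
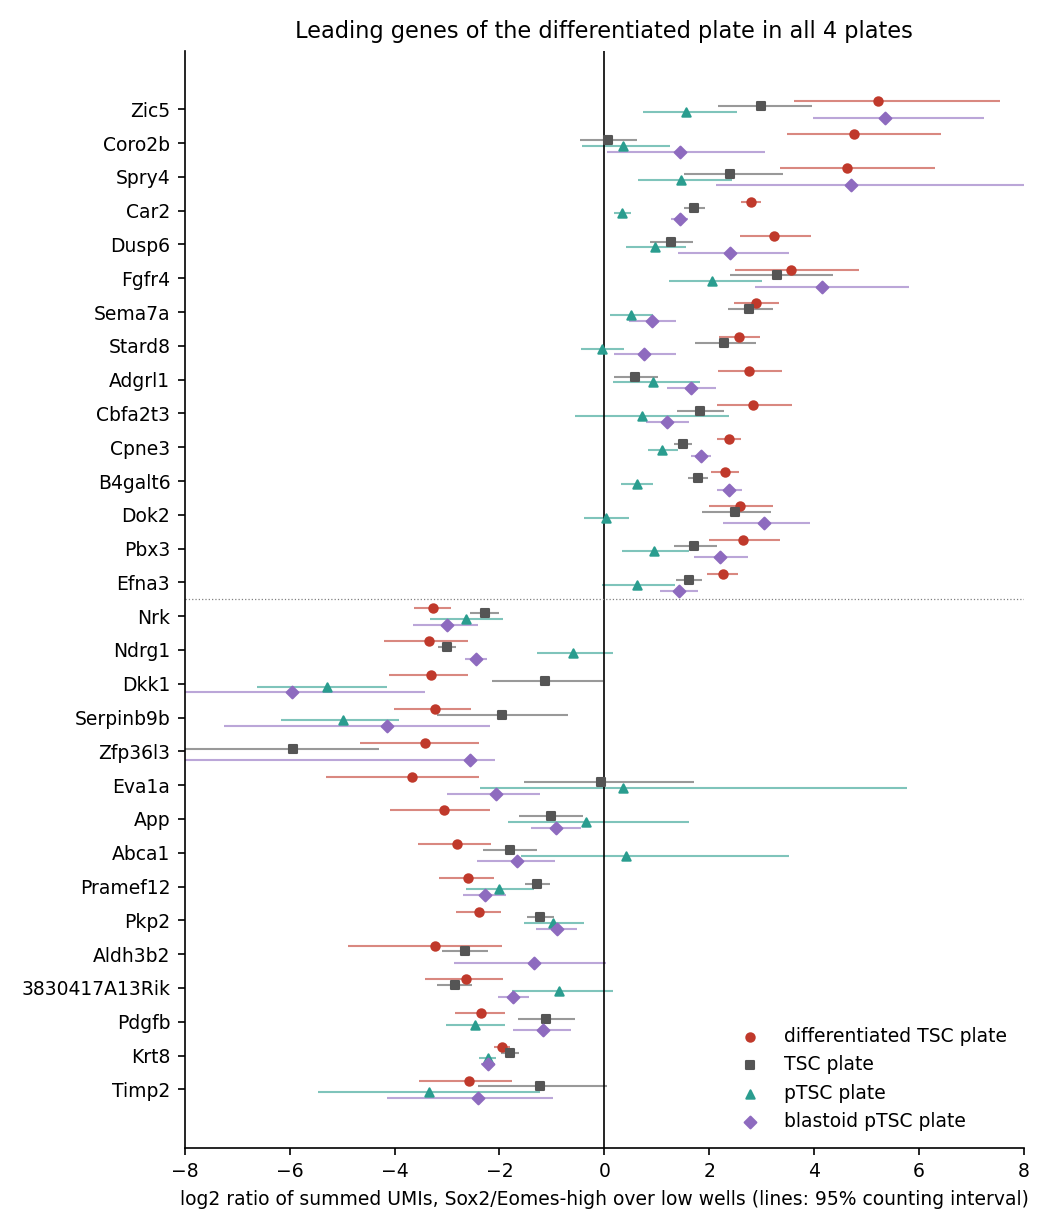
Rows are the 30 leading genes, and points give the log2 ratio of summed UMIs in wells above the upper cut over wells below the lower cut of Sox2 plus Eomes on each plate, with 95% counting intervals as lines (intervals past 8 are cut, genes with under 10 UMIs are left out, and a count of 0 is set to 3). The differentiated plate chose the genes, and the TSC and blastoid plates lie on the same side for all 30.

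Zic5, Spry4, Fgfr4 and Cpne3 were at least 2-fold higher on all 3 other plates. Zic5 was at 111 CPM in the high and 13.96 CPM in the low wells of the TSC plate (7.99-fold, 4.52 to 15.6), at 206 and 69.4 CPM on the pTSC plate (2.96-fold) and at 183 and 4.47 CPM on the blastoid plate (40.97-fold, 15.7 to 152). Spry4 was 5.26-fold higher (2.89 to 10.7) among TSCs and 2.77-fold (1.56 to 5.41) among pTSCs, and it had 29 and 1 UMIs among blastoid pTSCs. Dusp6 was 2.41-fold higher among TSCs (163 and 67.5 CPM), 1.95-fold among pTSCs (326 and 168 CPM) and 5.25-fold among blastoid pTSCs (58.7 and 11.2 CPM). Coro2b and Adgrl1 were under 2-fold on the TSC plate, where Coro2b was at 45.03 CPM in the high and 43.03 CPM in the low wells. Krt8 was 3.48-fold lower among TSCs, 4.67-fold among pTSCs and 4.65-fold among blastoid pTSCs. Nrk was 4.84-fold, 6.22-fold and 7.99-fold lower on the same plates.

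The lists were counted on the other plates in the same way. The TSC regulators had 8 of 16 measured genes at least 2-fold higher and 1 lower among TSCs, 5 of 15 and 0 among pTSCs, and 9 of 15 and 0 among blastoid pTSCs. FGF and ERK targets had 9 of 12 higher and 0 lower, 5 of 12 higher and 2 lower, and 7 of 11 higher and 0 lower, in the same order. Mural trophectoderm genes had 7 of 13, 8 of 11 and 11 of 12 lower and 0 higher. The G2 and M phase list, with 7 of 14 genes higher on the differentiated plate, had 0 of 15 higher and 1 lower among TSCs, 2 of 14 higher among pTSCs and 2 of 15 higher among blastoid pTSCs. Whether the plates differ in this was not tested. Cdx2, near 0 on the differentiated plate, was 5.71-fold higher (2.95 to 12.7) in the high wells of the TSC plate, 0.965-fold (0.504 to 2.08) on the pTSC plate and 2.19-fold (1.26 to 3.96) on the blastoid plate. Nodal was 5.02-fold higher on the TSC plate on 63 UMIs in the high and 3 in the low wells, and its interval reached below 1 on the pTSC and blastoid plates.

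**Figure D5:**
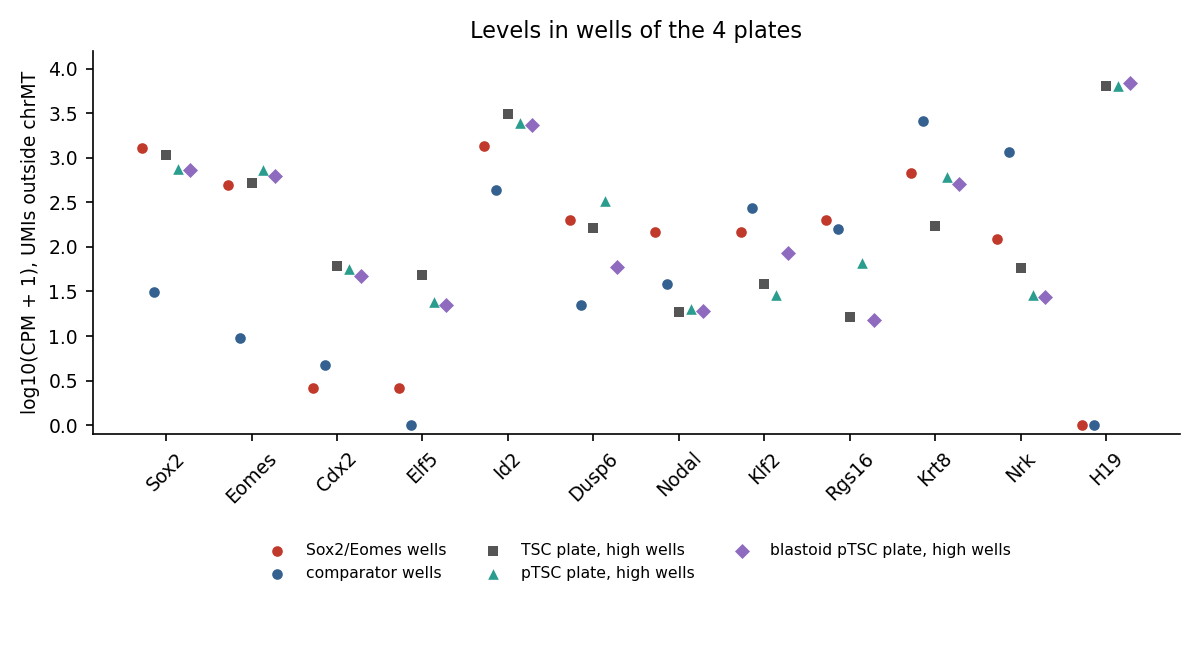
The y axis gives log10 of CPM plus 1 for 12 genes in the Sox2/Eomes wells and comparators of the differentiated plate and in the wells above the upper cut on the other plates. Cdx2, Elf5 and H19 are near 0 on the differentiated plate, Nodal is highest in its Sox2/Eomes wells, and Id2, Dusp6, Krt8 and Nrk in the Sox2/Eomes wells lie between or beside the other groups.

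Set beside the high wells of the TSC plate, the Sox2/Eomes wells kept some RNAs at a similar level and had others far lower. Dusp6 was at 201 CPM in the Sox2/Eomes wells and 163 CPM in the TSC high wells, and Zic5 at 105 and 111 CPM. Id2 was at 1369 and 3094 CPM (2.26-fold lower, 2.11 to 2.43), Bmp4 at 43.4 and 156 CPM (3.59-fold lower, 2.44 to 5.49) and Nat8l at 163 and 1070.1 CPM (6.58-fold lower, 5.40 to 8.10). Duox2, an oxidase of polar trophectoderm, had 7 UMIs in the Sox2/Eomes wells and 674 in the TSC high wells (16.6-fold lower, 8.03 to 41.5). Krt8 was 3.95-fold higher (3.48 to 4.48) in the Sox2/Eomes wells and Car2 2.06-fold (1.92 to 2.21). These ratios cross 2 libraries that differ in H19, Xist and Uty and in depth, with a median of 15091 UMIs in a kept well of the TSC plate and 8473 on the differentiated plate.

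Bulk TSCs sorted by CDX2 offered the 1 comparison with replicates. Totals were 157588, 257159 and 272030 counts in CDX2-high libraries and 116659, 138966 and 134978 in CDX2-low libraries. Cdx2 itself had 1, 0 and 5 counts in CDX2-high libraries and 0, 1 and 0 in CDX2-low libraries, too few to check the sort. The labels do not say that replicates were separate cultures, so p-values measure the spread between these libraries, and in bulk fewer cells of a kind and less RNA per cell cannot be told apart. With edgeR's quasi-likelihood test, 93 of 3006 genes (3.09%) rose in CDX2-high libraries and 84 (2.79%) fell at a Benjamini-Hochberg adjusted p under 0.05.

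At this depth 6 of the 15 leading higher genes and 2 of the 15 leading lower genes had enough counts to be tested. Dusp6 was at 261, 219.5 and 242 CPM in CDX2-high libraries and 65.7, 28.2 and 80.1 CPM in CDX2-low libraries, so the groups did not overlap. By edgeR it rose with a log2 fold change of 1.95 (SE 0.33) and an adjusted p of 0.000435. Krt8 was at 186, 207 and 261 CPM in CDX2-high libraries and 821, 641 and 750.2 CPM in CDX2-low libraries, again without overlap. By edgeR it fell with a log2 fold change of -1.83 (SE 0.22) and an adjusted p of 7.05e-06. Cpne3 (log2 fold change 0.95, adjusted p = 0.0659), Ndrg1 (-1.10, adjusted p = 0.0663), Eomes (0.83, adjusted p = 0.147) and Sox2 (0.49, adjusted p = 0.227) did not pass with edgeR. Car2, Sema7a and B4galt6 had log2 fold changes of 0.17, -0.11 and 0.55 and did not pass either. The count of leading genes called, 2 here, came to 5 without CDX2-low replicate 42.

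More of the named genes could be tested once the lists were counted in. The lists were chosen with earlier results of these data known, so the counts below are no independent check. Of all 3006 genes tested, 3.09% rose and 2.79% fell. Of 55 named genes at least 2-fold higher in the Sox2/Eomes wells, 30 were tested in bulk. By edgeR 9 of them rose and 1 fell in CDX2-high libraries. The 9 were Dusp6, Ccnd1, Sox3, Nat8l, Ddah1, Rrm2, Ccnb1, Ccna2 and Ube2c. With DESeq2 6 rose. Sox3 (adjusted p = 0.0749), Ddah1 (0.0625), Rrm2 (0.161) and Ccna2 (0.209) did not pass there, and Top2a (0.0417) did. Of 50 named genes at least 2-fold lower, 16 were tested, and 0 rose and 12 fell. These were Krt8, Krt18, Krt19, Lgals3, Phlda2, Rhox6, Rhox9, Cebpb, Cldn4, Dsp, Jun and Cited1. Their number came to 7 without CDX2-high replicate 38, to 6 without CDX2-high replicate 39 and to 7 with DESeq2. Of 108 named genes within 2-fold, 65 were tested, and 5 rose and 5 fell. Rhox6 was at 49.7, 97.6 and 105 CPM in CDX2-high libraries and 271, 282 and 255 CPM in CDX2-low libraries, and fell with a log2 fold change of -1.71 (SE 0.28) and an adjusted p of 0.000273 by edgeR. The 1 gene against the direction of the plate was Id2. It was at 199, 207 and 257 CPM in CDX2-high libraries and 320.2, 479 and 568 CPM in CDX2-low libraries, and fell with a log2 fold change of -1.14 (SE 0.24) and an adjusted p of 0.00392 by edgeR, whereas it was 3.15-fold higher in the Sox2/Eomes wells over their comparators.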

How the data were processed

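CEL-Seq2 libraries were made from 4 single-cell plates and 6 bulk samples, per the labels' protocols. The single-cell tables deposited by the authors hold whole-number transcripts per gene and well, treated here as estimated counts and used without rounding, and the deposited bulk table holds raw counts. The submitters' processing notes name STAR 2.5.3a. The build, annotation, counting program and UMI correction were not found in the sources used. Doublets were not called, and 1 alternative drops the deepest 5% of wells. All 384 well numbers occur on every plate, and they name positions, not cells.

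UMIs were summed per group and divided by the group's UMIs outside mitochondrial genes. Intervals of ratios are exact conditional binomial at 95%, and 2-fold is a rule of size. Intervals of shares of wells are exact binomial at 95% and take the wells of 1 library as independent. Genes with at least 10 UMIs over both groups were measured. The leading genes are 15 higher and 15 lower with at least 50 UMIs, a UMI in at least 25% of wells of the group where they are higher and at most 20% of its UMIs in 1 well. They are ordered by the interval bound nearest to no difference, with the 7 genes of the rule left out. Also named are the proposed markers, the measured genes of 29 lists and the 10 genes most like Sox2 plus Eomes, of which some are not reported here. Genes of bulk or other plates were taken from these. Checks of the cell line (H19, Xist, Uty) and Duox2 were chosen after their values were seen. The members, the rule and the lists were chosen with earlier results of these data known.

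For bulk, edgeR 4.0.16 (R 4.3.3) was run with filterByExpr, TMM factors, glmQLFit and glmQLFTest, and p-values were adjusted by Benjamini-Hochberg over all genes tested. DESeq2 1.42.0 was an alternative. Bulk replicate numbers pair nothing. Both procedures were run on simulated data. The simulated wells held counting error only, which the intervals assume, so that run does not show how they do where wells differ more. In the simulated bulk libraries the spread between replicates was a set value, the same for all genes. Other steps ran in Python 3.11.15 with scipy 1.17.1, pandas 2.3.3 and numpy 2.4.6.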

Additional observations from a re-analysis of the deposited data

Results flagged for a closer look

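In 606 pairs of a named gene and another plate, 5 had a ratio on the other side of 1 from the differentiated plate, with both intervals clear of 1 and at least 1 of both ratios 2-fold. None of these differences between plates was tested, and each plate is 1 library. Klf2, put forward as a marker of these wells, was lower in the Sox2/Eomes wells (log2 ratio -0.89), and on the blastoid plate it was at 83.96 CPM in the high wells and 4.47 CPM in the low wells (log2 ratio 4.23). Perp, a p53 target of desmosomes, was at 611 CPM in the Sox2/Eomes wells and 864 CPM in the comparators, and on the TSC plate at 551 and 173 CPM (log2 ratio 1.67). Gsto1 was higher in the Sox2/Eomes wells (log2 ratio 1.77), and on the pTSC plate it stood at 10343 CPM in the high wells and 11526.5 CPM in the low wells (log2 ratio -0.16). Znrf3, an inhibitor of WNT receptors, was at 54.7 CPM in the Sox2/Eomes wells and 26.1 CPM in the comparators, and on the blastoid plate at 41.5 and 79.3 CPM (log2 ratio -0.94). Slbp, which binds histone mRNA, was at 20.9 CPM in the Sox2/Eomes wells and 42.9 CPM in the comparators, and on the blastoid plate at 78.9 and 48.04 CPM (log2 ratio 0.72).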

How the results depend on the processing

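The 66 Sox2/Eomes wells came to 50 to 68 under the 7 other ways of choosing them. Among these ways, asking for at least 2 UMIs of Sox2 plus Eomes left the same 66 wells, so it could change no result. The counts of genes at least 2-fold higher (709) and lower (685) stayed within 1.5 times under the 11 alternatives, except with at least 50 UMIs per gene (199 higher and 243 lower of 4457 genes) and with each well thinned to 2000 UMIs (417 higher of 4641 genes), where fewer genes were measured. The median of the TSC regulators (1.03) ran from 0.45 in thinned wells to 1.08. The 15 leading higher and 15 leading lower genes stayed at least 2-fold in their direction in each of the 10 alternatives run for single genes. Their size changed more, with 31 of 150 values of the higher genes and 12 of 150 of the lower genes outside the gene's main interval. Pcsk6 turned to a log2 ratio of -0.0063 with all wells under 5 per 10000 as comparators. Leaving out the well with the most UMIs of a gene was chosen after seeing the data. It turned Gpnmb to -0.19 and moved Rgs16 to 1.25. In bulk, 2 leading genes were called by edgeR, 2 to 5 without 1 library (5 without CDX2-low replicate 42, where Cpne3, Ndrg1 and Pramef12 were added) and 6 with no filter on low counts. For all named genes, an alternative also chosen after seeing the data, the 9 called higher came to 6 to 11 and the 12 called lower to 6 to 13 without 1 library. With DESeq2 the 9 came to 6. The 12 came to 7 with DESeq2 and to 7 with libraries thinned to the smallest total. Dusp6, Krt8, Rhox6 and Id2 kept their direction and an adjusted p under 0.05 in each of these bulk alternatives. No paired analysis was possible because the bulk groups share no replicate numbers. Bulk depth left 22 of the 30 leading genes untested.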
